A study of Mus musculus with 4 samples.

Results

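Eph receptors are the largest family of receptor tyrosine kinases, and they are read here in whole cochleas of *Meis2* mutant and wild-type mouse embryos at E15. The set comprised *Epha2*, *Epha3*, *Epha4*, *Epha5*, *Epha7*, *Epha8*, *Ephb1*, *Ephb2*, *Ephb3* and *Ephb4*, receptors of the spiral ganglion and the otic mesenchyme. A receptor was followed through every probe set whose single symbol in the annotation of the array was its own. Of the 10 receptors 9 had such a probe set, and together they had 10 of the 35556 probe sets, since *Ephb1* had 2. *Ephb2* was not analysed here, because no probe set carried it as its single symbol. *Epha3*, *Epha4*, *Epha5* and *Epha7* were lower in mutant than in wild-type cochleas, whereas *Epha8*, *Ephb1*, *Ephb3* and *Ephb4* were higher. *Epha2* did not pass the test.

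RNA levels were read with 4 Affymetrix Mouse Gene ST arrays, 2 of *Meis2* mutant cochleas (replicates 1 and 2) and 2 of wild-type cochleas (replicates 2 and 3), all taken at E15. The mutants were *Meis2* flox/flox; *Pax2* Cre/+, in which Cre is driven by regulatory sequences of *Pax2*, a gene of the otic placode, and the wild-type embryos are described no further than by that name. The whole cochlea also holds cells that do not descend from the otic placode, such as the periotic mesenchyme and the vessels. Values are log2 signals computed by the authors with the robust microarray analysis (RMA) algorithm, so that a difference of 1 is a doubling of the signal. Neither the labels nor the methods say whether the arrays of a genotype hold separate embryos or pools, so the p-values cover no more than the spread among the arrays at hand.

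Eph receptors bind ephrins on the surface of neighboring cells, so that the signal passes only where cells touch. A-class receptors mainly bind ephrin-A ligands, which are held in the membrane by a lipid anchor, and B-class receptors mainly bind ephrin-B ligands, which span the membrane. Signals run forward into the cell with the receptor and in reverse into the cell with the ephrin, and in many growth cones the forward signal causes repulsion. In the cochlea, EphA4 of the otic mesenchyme is known for its part in bundling spiral ganglion axons, and EphA7 for its role in the outgrowth of these axons.

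Across all arrays, the 2 mutant arrays correlated with each other at r = 0.996, the 2 wild-type arrays at 0.993 and arrays of different genotype at 0.966 to 0.971 over probe sets, which are not independent replicates. A large part of the array differed between genotypes: of 19938 genes, each represented by its brightest probe set, 24.2 percent were higher and 16.2 percent lower in mutants at an adjusted p under 0.05 (limma, adjusted after Benjamini-Hochberg over every probe set), 40.4 percent in all. The median difference over all genes was 0.13, and when each array was scaled to a common median the split became 15.7 percent higher and 18.9 percent lower. *Meis2* itself had 9.61 and 9.80 in mutant cochleas and 9.64 and 9.38 in wild-type cochleas (difference 0.19, adjusted p = 0.284). Its probes may lie outside the deleted part of the gene, in which case they do not check the genotype. *Xist*, the RNA of the inactive X chromosome, had 11.83 and 11.84 on the mutant arrays, against 5.54 and 11.51 on the wild-type arrays. *Eif2s3y*, a Y-linked gene, had 4.68 and 4.88 in mutant cochleas and 8.76 and 7.77 in wild-type cochleas. Both wild-type arrays thus had Y-linked signal, and replicate 3 had *Xist* as well, while the mutant arrays had *Xist* and Y-linked signal at the level of dim probe sets only. The labels do not give the sex of the embryos, and sex and genotype cannot be told apart in any result on these arrays.

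The promoters of 4 of the receptors are shown because these genes mark the pattern. *Epha3* and *Epha7* are the receptors whose falls passed the test under every alternative setting, *Ephb1* is the receptor with the largest rise, and *Ephb3* holds the only match to a Meis or Pbx-Hox motif. Each window is 300 bases on the strand of the gene, 250 before and 50 after the start given by RefSeq on GRCm38.p6, with the matches described in the next paragraph in capitals.
Epha3, chr16:63864126-63864425, minus strand: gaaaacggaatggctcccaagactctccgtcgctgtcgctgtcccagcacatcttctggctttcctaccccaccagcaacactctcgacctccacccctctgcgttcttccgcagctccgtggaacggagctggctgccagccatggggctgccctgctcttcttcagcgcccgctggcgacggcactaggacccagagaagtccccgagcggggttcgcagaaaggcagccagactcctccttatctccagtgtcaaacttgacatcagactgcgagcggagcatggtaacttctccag
Epha7, chr4:28812881-28813180, plus strand: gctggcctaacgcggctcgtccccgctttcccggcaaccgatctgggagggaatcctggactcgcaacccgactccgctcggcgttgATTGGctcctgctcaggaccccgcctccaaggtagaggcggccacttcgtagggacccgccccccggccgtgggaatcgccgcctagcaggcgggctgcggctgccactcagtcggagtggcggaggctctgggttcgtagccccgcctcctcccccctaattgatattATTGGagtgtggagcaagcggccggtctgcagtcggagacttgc
Ephb1, chr9:102354644-102354943, minus strand: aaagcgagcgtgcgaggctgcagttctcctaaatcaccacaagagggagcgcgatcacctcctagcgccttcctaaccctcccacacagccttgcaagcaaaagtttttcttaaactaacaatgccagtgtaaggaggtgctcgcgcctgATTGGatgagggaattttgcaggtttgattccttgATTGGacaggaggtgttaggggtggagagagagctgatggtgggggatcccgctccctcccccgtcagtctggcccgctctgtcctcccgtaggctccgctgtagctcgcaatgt
Ephb3, chr16:21204545-21204844, plus strand: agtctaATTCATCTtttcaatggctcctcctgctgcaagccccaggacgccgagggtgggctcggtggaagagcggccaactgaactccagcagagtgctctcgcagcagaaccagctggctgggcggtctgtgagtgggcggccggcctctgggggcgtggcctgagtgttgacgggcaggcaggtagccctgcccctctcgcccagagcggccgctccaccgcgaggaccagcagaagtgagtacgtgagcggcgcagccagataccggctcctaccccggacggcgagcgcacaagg

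RefSeq gave 11 such windows for the 10 receptors, with 2 overlapping ones for *Epha7*. Meis proteins are known to bind the letters TGACAG, and to reach TGATNNAT and AGATNNAT through Pbx and Hox partners. On both strands, TGACAG was in 0 of the 11 windows and in 19.2 percent of all 32851 promoter windows, TGATNNAT in 0 windows and 8.85 percent, and AGATNNAT in 1 window and 9.4 percent. The match was in *Ephb3*, with the motif on the opposite strand, so that the strand of the gene reads ATTCATCT. These letters start 244 bases before the start of the gene. The letters CCAAT, a common promoter element searched on both strands and chosen after the windows had been read, were in 7 windows of 6 genes (*Epha4*, *Epha7*, *Epha8*, *Ephb1*, *Ephb2* and *Ephb4*), against 37.4 percent of all windows. TGATNNAT and AGATNNAT differ only in the letter they begin with, no match in a receptor window overlapped another, and a match is only a match of letters. The receptor windows had a median GC content of 64.7 percent and a median of 23 CG pairs, against 52.7 percent and 7 over all windows. Genes that were lower in mutants (*Epha4*, *Epha7*) and genes that were higher (*Epha8*, *Ephb1*, *Ephb4*) both held CCAAT.

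**Figure D1:**
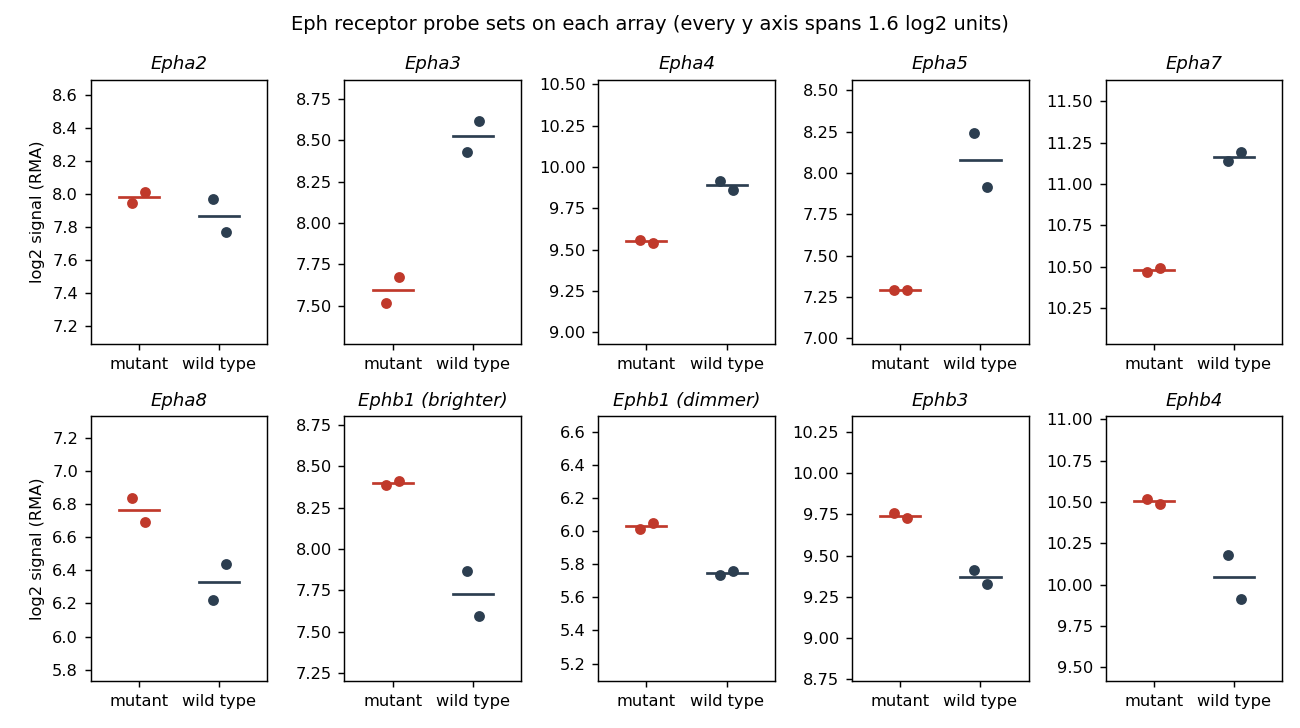
Log2 RMA signal (y axis, each spanning the same number of log2 units) of the 10 Eph receptor probe sets on the mutant and wild-type arrays, with 1 point per array and a line at the mean of 2. Mutant points lie below the wild-type points for *Epha3*, *Epha4*, *Epha5* and *Epha7*, above them for *Epha8*, *Ephb1*, *Ephb3* and *Ephb4*, and among them for *Epha2*.

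All 9 receptors had a mean signal above 5.74, the 95th percentile of 1196 olfactory and vomeronasal receptor genes, which served as the line for dim probe sets in this tissue. Of the 9, 4 were higher and 4 lower in mutants, beside 24.2 and 16.2 percent of all genes, and the receptors' median difference was 0.11, against 0.13 over all genes. Of the 10 probe sets, 9 passed the test, beside 37.3 percent of all probe sets. That share includes dim probe sets. In the test without dim ones, 12032 of 22974 probe sets passed, and 9 of the 10 receptor probe sets. The arrays of the genotypes did not overlap for 8 of the 9 receptors, which is close to the 80.4 percent of all genes for which they did not. With each array scaled to a common median, 1 receptor was higher (*Ephb1*) and 4 lower, and with repeated quantile normalization 3 were higher and 3 lower. Each receptor kept its direction under both scalings. Without mutant replicate 1 or without mutant replicate 2, only *Epha3* and *Epha7* passed, without wild-type replicate 2 there were 3 higher and 3 lower, and without wild-type replicate 3 there were 2 higher and 3 lower.

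Among the 6 A-class receptors, 4 fell, 1 rose and 1 did not pass, with a median difference of -0.51. Of all genes 16.2 percent were lower and 24.2 percent higher. *Epha3* encodes a receptor of ephrin-A5 that takes part in the mapping of retinal and motor axons. Its probe set (10440258) had 7.51 and 7.67 in mutant cochleas, against 8.43 and 8.62 in wild-type cochleas. Both mutant arrays were below both wild-type arrays by more than the arrays of a genotype differed. The difference was -0.93 (SE 0.11, 95% confidence interval -1.22 to -0.65), a 1.91-fold lower signal, with an adjusted p of 0.00564 (limma). This was the largest fall among the receptors, and its size exceeded that of 92.3 percent of all probe sets. In bulk tissue, fewer cells of a type and less RNA per cell cannot be told apart.

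*Epha7* encodes a receptor of spiral ganglion neurons and of neural folds and cortex. The probe set (10503659) had 10.47 and 10.49 in mutant cochleas and 11.14 and 11.20 in wild-type cochleas, with a narrow spread in either genotype and no overlap. It fell by 0.69 (SE 0.08, 95% confidence interval -0.89 to -0.48, 1.61-fold, adjusted p = 0.00534). *Epha3* and *Epha7* remained past the threshold in all 12 alternatives, with an adjusted p of at most 0.0359 and 0.0411.

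*Epha5*, like *Epha3* a receptor of ephrin-A ligands in axon mapping, had 7.29 on both mutant arrays (probe set 10530870), against 8.24 and 7.91 on the wild-type arrays. The mutant arrays were nearly equal and the wild-type arrays spread more, without overlap. The difference was -0.79 (SE 0.13, 95% confidence interval -1.12 to -0.45, 1.73-fold, adjusted p = 0.0116). Without mutant replicate 1 the adjusted p was 0.0588 and without mutant replicate 2 it was 0.0634.

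*Epha4* encodes the receptor that binds ligands of both classes and that guides spiral ganglion axons from the surrounding mesenchyme. Its probe set (10355893) had 9.56 and 9.54 in mutant cochleas, against 9.92 and 9.86 in wild-type cochleas. All arrays of a genotype lay close together, and the groups did not overlap. This was the smallest fall among the 4, at -0.34 (SE 0.08, 95% confidence interval -0.54 to -0.14, 1.26-fold, adjusted p = 0.0284). The call was lost when any 1 array was left out, with an adjusted p of 0.121 without mutant replicate 1, 0.14 without mutant replicate 2, 0.0802 without wild-type replicate 2 and 0.0598 without wild-type replicate 3, and with repeated quantile normalization (0.0503).

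*Epha8* encodes a receptor known from neurons of the midbrain. It was the A-class receptor that moved the other way, with 6.84 and 6.69 in mutant cochleas and 6.22 and 6.44 in wild-type cochleas (probe set 10517521). Both mutant arrays were above both wild-type arrays, and the arrays of a genotype differed by a sizeable part of the distance between genotypes. The difference was 0.44 (SE 0.11, 95% confidence interval 0.14 to 0.73, 1.35-fold, adjusted p = 0.038). The call was lost without mutant replicate 1 (0.164), mutant replicate 2 (0.0957) or wild-type replicate 2 (0.102), and with median scaling (0.0648) or repeated quantile normalization (0.074).

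*Epha2*, a receptor of epithelia and of the lens, had 7.95 and 8.01 in mutant cochleas and 7.97 and 7.77 in wild-type cochleas (probe set 10509965). A wild-type array lay between the mutant arrays. The difference of 0.11 had a 95% confidence interval of -0.15 to 0.38 (SE 0.10, adjusted p = 0.419). The interval holds changes of either direction, so the direction for *Epha2* remained undecided.

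All 3 measured B-class receptors were higher in mutants, beside 24.2 percent of all genes, with a median difference of 0.46. With median scaling only *Ephb1* of them passed, and the classes were not compared by a test. *Ephb1*, known for the receptor that turns ventrotemporal retinal axons to the same side of the brain, had the largest rise. The brighter of its probe sets (10596095) had 8.39 and 8.41 in mutant cochleas, against 7.87 and 7.59 in wild-type cochleas, and the mutant arrays were closer to each other than the wild-type arrays were. The difference was 0.67 (SE 0.12, 95% confidence interval 0.37 to 0.97, 1.59-fold, adjusted p = 0.0136). The other probe set (10596115) had 6.02 and 6.05 in mutant cochleas and 5.74 and 5.76 in wild-type cochleas, near the line for dim probe sets. It differed in the same direction and by less, at 0.28 (SE 0.08, 95% confidence interval 0.08 to 0.49, adjusted p = 0.0433). The call of this dimmer probe set was lost with a trended prior, median scaling or repeated quantile normalization. It was also lost when any 1 array was left out. Without mutant replicate 1 or mutant replicate 2, the adjusted p of the brighter probe set was 0.0645 and 0.0732.

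*Ephb4* encodes the receptor of venous endothelium, whose partner ephrin-B2 marks arteries. The probe set (10526566) had 10.52 and 10.49 in mutant cochleas, against 10.18 and 9.91 in wild-type cochleas, with no overlap. The difference was 0.46 (SE 0.11, 95% confidence interval 0.16 to 0.75, 1.37-fold, adjusted p = 0.0345). Of 9 markers of endothelium, 1 was higher and 0 were lower, beside 24.2 and 16.2 percent of all genes. The higher one was *Flt1*, a receptor of vascular endothelial growth factor, by 0.48. Of the 8 that did not pass, 5 had a positive difference, while *Pecam1* had one of -0.23. The mean log2 signal of the 9 was 9.30 and 9.38 on the mutant arrays. It was 9.22 and 9.31 on the wild-type arrays, which overlap with the mutant arrays. The part of endothelial content in the result was not tested. The adjusted p of *Ephb4* was 0.136 without mutant replicate 1, 0.127 without mutant replicate 2, 0.0771 without wild-type replicate 3 and 0.0684 with median scaling.

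*Ephb3*, which acts with *Ephb2* in the crossing of commissural axons and in the gut crypt, had 9.75 and 9.73 in mutant cochleas and 9.41 and 9.33 in wild-type cochleas (probe set 10434559). Arrays of a genotype lay close together and the groups did not overlap. The difference was 0.37 (SE 0.08, 95% confidence interval 0.16 to 0.58, 1.29-fold, adjusted p = 0.0249), the smallest of the 4 rises. Its adjusted p was 0.122 without mutant replicate 1, 0.112 without mutant replicate 2, 0.0756 without wild-type replicate 3 and 0.0546 with median scaling.

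**Figure D2:**
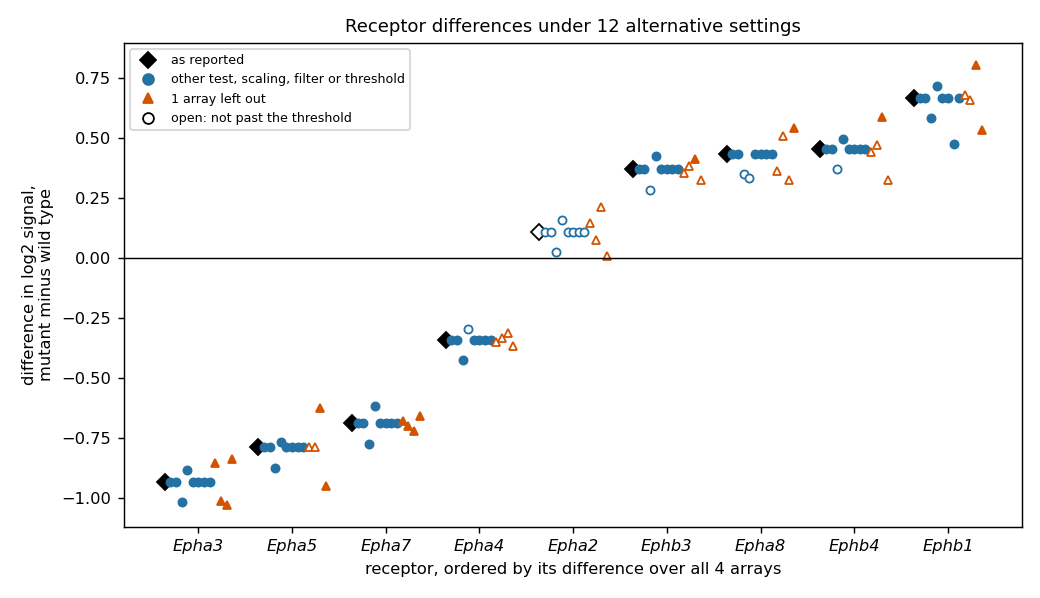
Difference in log2 signal, mutant minus wild type (y axis), of the 9 Eph receptors (x axis) over all 4 arrays (diamond) and under 12 alternatives (circles and triangles), some of which alter only the test, with open symbols where it was not passed. Differences stay below 0 for *Epha3*, *Epha5*, *Epha7* and *Epha4* and above 0 for the other receptors, while only *Epha3* and *Epha7* have filled symbols throughout.

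In order of their differences the receptors ran from *Epha3*, *Epha5*, *Epha7* and *Epha4* through *Epha2* to *Ephb3*, *Epha8*, *Ephb4* and *Ephb1*. The confidence intervals of *Epha3*, *Epha5* and *Epha7* overlapped one another, as did those of the 4 receptors that rose, and differences between receptors were not tested. The genes whose values over the 4 arrays, each centred on its mean, lay nearest to *Epha3* were *Lias* (root mean square distance 0.010), *Dnajc7* (0.012) and *Arid5b* (0.021). Nearest to *Ephb1* were *Lats2* (0.0093), *Gramd1a* (0.011) and *F930015N05Rik* (0.012). With 4 arrays this is a description of the values only.

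Some lists of cell type markers differed between genotypes more than others, and their counts stand beside 24.2 percent of all genes higher and 16.2 percent lower. Of 13 markers of ganglion neurons, 7 were lower and 0 higher in mutants. Of the 6 that did not pass, 4 had a positive difference. The mean log2 signal of the 13 was 8.54 and 8.49 in mutant cochleas, against 9.07 and 9.07 in wild-type cochleas. *Nefl*, a neurofilament gene, had 10.22 and 10.20 in mutant cochleas and 11.83 and 11.86 in wild-type cochleas, a difference of -1.63 (adjusted p = 0.00244). *Neurod1*, a transcription factor of young ganglion neurons, had 5.37 and 5.13 in mutant cochleas, below the line for dim probe sets, and 6.74 and 6.48 in wild-type cochleas. Of the 6 measured markers of Schwann and satellite glia, 3 were lower and 1 higher (mean 8.80 and 8.86 in mutant cochleas, 9.17 and 9.24 in wild-type cochleas). Of 10 markers of periotic mesenchyme, 3 were higher and 2 lower (10.28 and 10.40 in mutant cochleas, 10.13 and 10.27 in wild-type cochleas). Of 8 markers of cartilage, 4 were higher and 0 lower (11.46 and 11.49 in mutant cochleas, 10.95 and 10.92 in wild-type cochleas), and of 9 markers of skeletal muscle 7 were higher and 0 lower (6.89 and 7.27 in mutant cochleas, 6.31 and 6.53 in wild-type cochleas). The prosensory and supporting cell list had 3 of 7 lower and 1 higher (8.62 and 8.80 in mutant cochleas, 9.14 on both wild-type arrays), and the duct epithelium list 2 of 7 lower and 1 higher (9.65 and 9.72 in mutant cochleas, 9.78 on both wild-type arrays). Hair cell markers had 2 of 6 higher and 1 lower (7.77 and 7.85 in mutant cochleas, 7.42 and 7.66 in wild-type cochleas), and macrophage markers 1 of 7 higher and 0 lower, with means that overlap (7.44 and 7.39 in mutant cochleas, 7.35 and 7.77 in wild-type cochleas). The part of any of these cell types in the receptor differences was not tested.

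The 4 other Eph receptors on the array were *Epha1*, *Epha6*, *Epha10* and *Ephb6*. Of these 1 was higher and 0 lower in mutants, beside 24.2 and 16.2 percent of all genes. *Epha10*, which encodes a receptor that lacks kinase activity, had 6.86 and 6.83 in mutant cochleas, against 6.46 and 6.48 in wild-type cochleas. The difference of 0.38 (SE 0.08, adjusted p = 0.0207) came from the brighter of its 2 probe sets, and the mean of both differed by 0.24 (adjusted p = 0.067). Its call was also lost when any 1 array was left out (adjusted p 0.109 and 0.101 without mutant replicate 1 or 2, and 0.0569 and 0.0542 without wild-type replicate 2 or 3). *Ephb6*, whose kinase is inactive as well, had 7.68 and 7.98 in mutant cochleas and 7.47 and 7.23 in wild-type cochleas. The groups did not overlap, and the difference of 0.48 (95% confidence interval 0.11 to 0.86) had an adjusted p of 0.0555. *Epha1* had 7.15 and 7.08 in mutant cochleas and 7.19 and 7.26 in wild-type cochleas, a difference of -0.11 (adjusted p = 0.346). *Epha6*, which was below the line for dim probe sets on all arrays, had 5.34 on both mutant arrays and 5.23 and 5.42 on the wild-type arrays, a difference of 0.02 (adjusted p = 0.908).

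The ligands of the same receptors were all measured, and of 8 ephrins 3 were higher and 1 lower in mutants, with a median difference of 0.19. Over all genes 40.4 percent passed and the median was 0.13, so the count and median of the ephrins were near the background. *Efna1*, a ligand of EphA2 known from vessels and epithelia, had 8.10 and 8.08 in mutant cochleas, against 9.32 and 9.41 in wild-type cochleas. The groups were far apart relative to the spread in either, with a difference of -1.28 (SE 0.08, 95% confidence interval -1.49 to -1.07, 2.42-fold, adjusted p = 0.00272). *Efna5*, a ligand of *Epha3*, *Epha5* and *Epha7* that lies in a gradient in the visual midbrain, moved the other way. It had 11.17 and 11.14 in mutant cochleas and 10.06 and 10.24 in wild-type cochleas, a difference of 0.998 (SE 0.10, 95% confidence interval 0.75 to 1.25, adjusted p = 0.00401). Both ephrins passed under all 12 alternatives. The A-class receptors *Epha3*, *Epha5* and *Epha7* were lower on the same arrays on which *Efna5* was higher. *Epha8*, another A-class receptor, was higher (0.44), and *Efna1* was lower as these receptors were. Over all genes 24.2 percent were higher and 16.2 percent lower, and no link between receptor and ligand was tested.

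*Efna2*, which is graded in the midbrain together with *Efna5*, had 9.96 and 10.02 in mutant cochleas, against 9.37 and 9.23 in wild-type cochleas. It was higher by 0.68 (SE 0.09, adjusted p = 0.00721), without overlap. *Efna4* had 10.11 and 10.06 in mutant cochleas and 9.67 and 9.57 in wild-type cochleas, and was higher by 0.46 (SE 0.08, adjusted p = 0.0153). The call of *Efna2* was lost without mutant replicate 2 (0.052) and that of *Efna4* without mutant replicate 1 (0.0864) or mutant replicate 2 (0.0757). *Efna3* had 7.54 and 7.68 in mutant cochleas and 7.60 and 8.31 in wild-type cochleas, where replicate 3 was well above the other 3 arrays. Its difference of -0.35 (95% confidence interval -0.97 to 0.28, adjusted p = 0.297) became -0.70 without wild-type replicate 2 (adjusted p = 0.0186) and 0.0056 without wild-type replicate 3 (adjusted p = 0.973).

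The ephrin-B ligands, the partners of the B-class receptors, gave 0 calls among 3 with limma as used for all genes. At an unadjusted p under 0.05 in limma there was 1 (*Efnb1*), beside 17763 of all 35556 probe sets. Significance analysis of microarrays called 2 (*Efnb1* and *Efnb3*), beside 26962 of all 35556 probe sets. Other limma settings called *Efnb1*, with an adjusted p of 0.0499 with a trended prior, 0.045 after repeated quantile normalization and 0.0345 over probe sets with 1 symbol only, and it also passed at the threshold of 0.1. *Efnb1*, the X-linked ligand of craniofacial development, had 9.88 and 9.81 in mutant cochleas and 9.60 and 9.56 in wild-type cochleas, a difference of 0.27 (95% confidence interval 0.06 to 0.48, adjusted p = 0.0552). *Efnb2*, the ligand of *Ephb4* in arteries, had 10.76 on both mutant arrays and 10.79 and 10.52 on the wild-type arrays, which overlap, with a difference of 0.10 (95% confidence interval -0.20 to 0.41, adjusted p = 0.504). *Efnb3*, a ligand of the midline of the spinal cord, had 8.21 and 8.30 in mutant cochleas and 8.15 and 8.17 in wild-type cochleas, a difference of 0.09 (95% confidence interval -0.12 to 0.31, adjusted p = 0.396). Whether the receptors and their ligands of a class differed from each other in response was not tested.

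**Figure D3:**
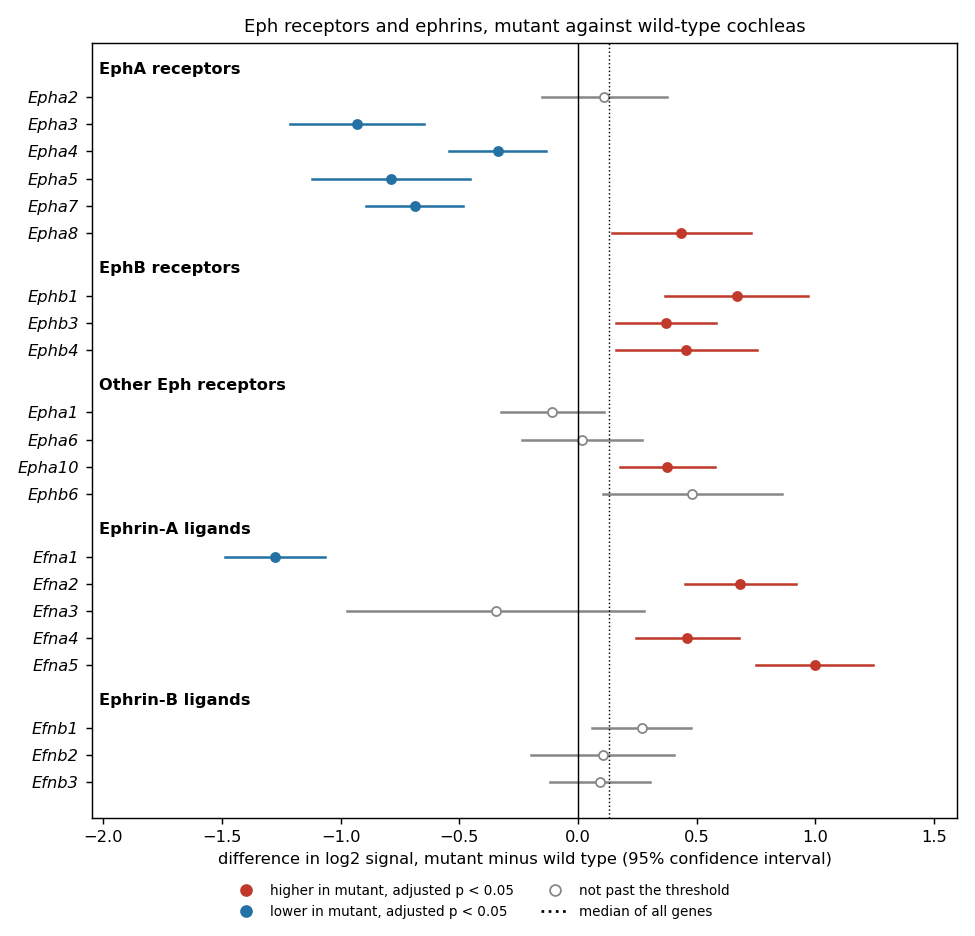
Difference in log2 signal, mutant minus wild type (x axis), with its 95% confidence interval for the Eph receptors and the ephrins (y axis), by class, and a dotted line at the median of all genes. *Epha3*, *Epha5* and *Epha7* lie between -0.93 and -0.69, the B-class receptors between 0.37 and 0.67, and the ephrin-A ligands spread from -1.28 (*Efna1*) to 0.998 (*Efna5*).

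Inside the cell, Eph receptors act through exchange factors, GTPase-activating proteins, adaptors, phosphatases and cytoplasmic kinases. All 28 listed genes of this kind were measured, of which 5 were higher and 9 lower in mutants, with a median difference of -0.04. Their 14 calls stand beside 40.4 percent of all genes, a share near their own, and beside a median of 0.13 over all genes. *Yes1*, a kinase of the Src family, had 7.0 and 7.04 in mutant cochleas, against 8.42 and 8.43 in wild-type cochleas. This was the largest fall of the list, at -1.40 (SE 0.08, 2.64-fold, adjusted p = 0.00257), whereas *Src* itself had 9.68 and 9.82 in mutant cochleas and 9.42 and 9.33 in wild-type cochleas (difference 0.38, SE 0.09, adjusted p = 0.0335). Both GTPase-activating proteins of the list were lower, beside 16.2 percent of all genes. *Rasa1*, which acts on Ras, had 9.15 and 9.13 in mutant cochleas and 9.97 and 9.999 in wild-type cochleas (difference -0.84, adjusted p = 0.00373), and *Chn1*, whose product alpha-chimaerin works downstream of EphA4, had 8.13 and 8.06 in mutant cochleas and 8.62 and 8.53 in wild-type cochleas (difference -0.48, adjusted p = 0.0135).

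Of the 8 exchange factors 3 were higher and 1 lower, beside 24.2 and 16.2 percent of all genes. Differences between roles were not tested. *Ngef*, which encodes the ephexin that binds EphA4, had 6.60 and 6.83 in mutant cochleas and 6.11 and 5.98 in wild-type cochleas (difference 0.67, SE 0.11, adjusted p = 0.0129). Its relatives *Arhgef15* and *Arhgef16* were higher by 0.70 and 0.51 (adjusted p 0.00737 and 0.0149), and *Vav3* was lower, with a difference of -0.86 (SE 0.12, adjusted p = 0.00819). Of the 10 adaptors and scaffolds 1 was higher and 3 lower, beside the same shares of all genes. *Nck1* (-1.07), *Pick1* (-0.66) and *Sdcbp* (-0.39) were lower. *Anks1*, which binds Eph receptors through a phosphotyrosine domain, was higher (0.50). *Adam10*, the protease that sheds ephrins, had 9.77 and 9.82 in mutant cochleas and 10.26 on both wild-type arrays (difference -0.47, SE 0.08, adjusted p = 0.0121). The phosphatase *Acp1* was lower at the brightest of its 5 probe sets (-0.85, adjusted p = 0.0102). The mean of all its probe sets differed by -0.66 (adjusted p = 0.0242 in limma).

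*Yes1*, *Rasa1* and *Vav3* passed under all 12 alternatives. The other 11 of the 14 genes lost the call without mutant replicate 2, with an adjusted p of 0.052 (*Arhgef15*), 0.0537 (*Acp1*), 0.0627 (*Anks1*), 0.0651 (*Ngef* and *Pick1*), 0.067 (*Adam10*), 0.0675 (*Nck1*), 0.0849 (*Chn1*), 0.0875 (*Arhgef16*), 0.156 (*Sdcbp*) and 0.167 (*Src*). Without mutant replicate 1, the call was lost for *Chn1* (0.0629), *Anks1* (0.0641), *Arhgef16* (0.0678), *Adam10* (0.075), *Src* (0.0825), *Sdcbp* (0.0887) and *Pick1* (0.091). *Src* also lost it without wild-type replicate 2 (0.0573) or 3 (0.0983) and with median scaling (0.0759), and *Sdcbp* without wild-type replicate 3 (0.0913).

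**Figure D4:**
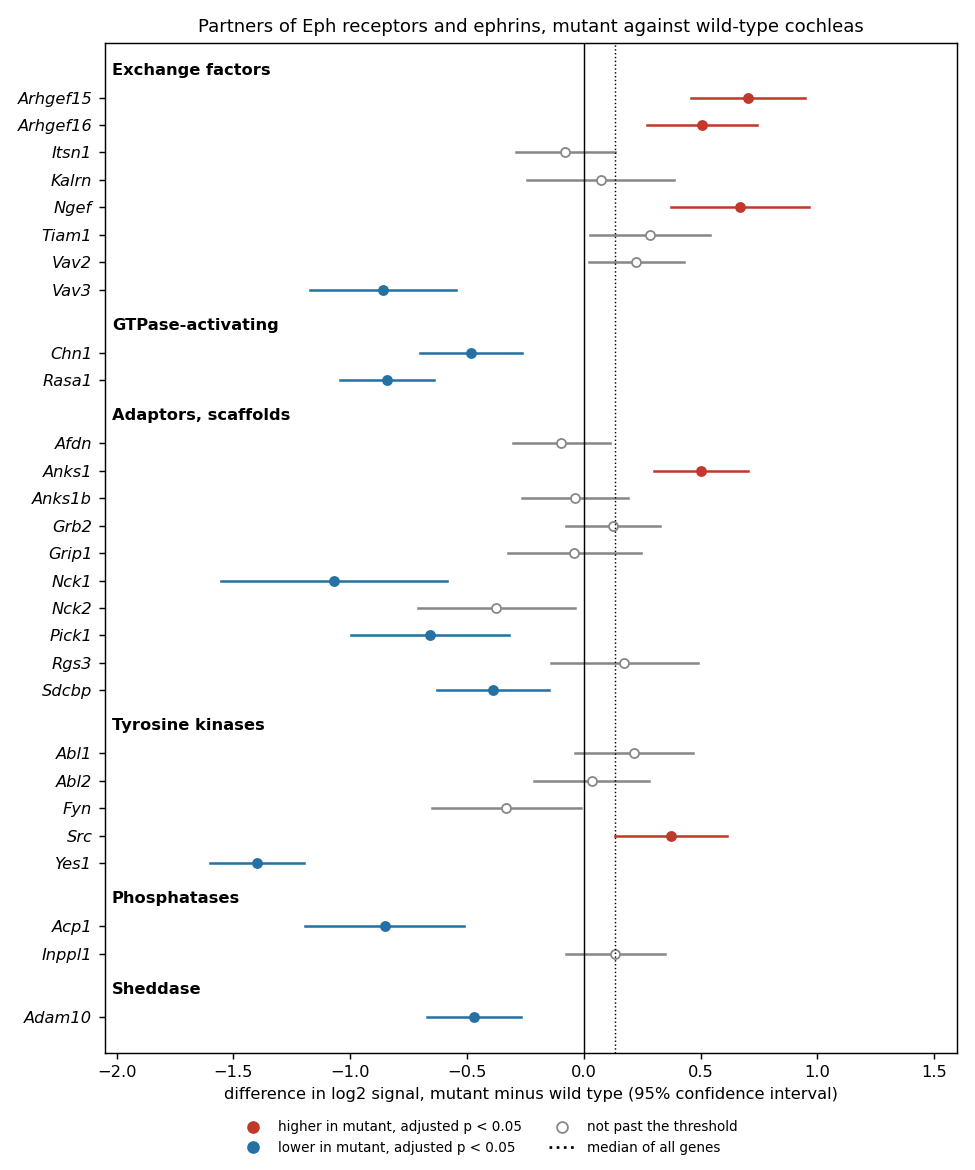
Difference in log2 signal, mutant minus wild type (x axis), with its 95% confidence interval for the 28 partners of Eph receptors and ephrins (y axis), by role, and a dotted line at the median of all genes. *Yes1* (-1.40) and *Nck1* (-1.07) lie farthest to the left and *Arhgef15* (0.70) farthest to the right, and 14 of the 28 are open circles, not past the threshold.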

How the data were processed

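RNA of whole E15 cochleas was isolated with the RNeasy Mini Kit, amplified with the WT Expression Kit and hybridized to Mouse Gene ST arrays. The deposited values are log2 signals. The authors made them with RMA, in which background correction and normalization of the arrays precede the summary of each probe set to 1 signal, and they were used as deposited. RMA and the build mm8 are named in the submitters' processing notes. Probe sets were named through the annotation of the platform: 21789 carry 1 symbol (21698 with a current record), 1621 carry several and name no gene here, and 12146 are not named. Genotypes were compared with limma 3.58.1 in R 4.3.3 (lmFit and eBayes, mutant minus wild type, no covariate, no filter, 2 residual and 2.91 prior degrees of freedom), with p-values adjusted after Benjamini-Hochberg over the 35556 probe sets at a threshold of 0.05. A gene stands for its probe set with the highest mean over the 4 arrays.

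The text names all Eph receptors and ephrins with the values of every array, the signaling genes past the threshold, the sex-linked genes and *Meis2* as checks, at most 2 genes of a marker list, and the 3 genes nearest to the receptors with the largest rise and fall. The receptors, lists and tests were chosen with earlier results of these data known, and 1 group of signaling genes is not reported here. The alternatives were significance analysis of microarrays (SAM, 6 relabelings), a trended prior, a threshold of 0.1, median scaling, quantile normalization repeated on the deposited values, leaving out each array, probe sets averaged within a gene, a test limited to 1-symbol probe sets and a test without dim ones. The code was tested on simulated data. Promoter windows came from RefSeq (GRCm38.p6), whose build differs from that of the arrays, and were matched by symbol for all 10 receptors. The other experiments of the study were not analysed here.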

Additional observations from a re-analysis of the deposited data

How the results depend on the processing

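With 2 arrays in each genotype, the number of arrays limits the precision, and an array left out leaves its genotype with 1 array that is assumed to vary like the others. Over all probe sets the count of calls was 13268, against 26962 with SAM and 4611 to 10895 with 1 array left out. Of the Eph receptors 8 genes and 9 probe sets passed, against 5 and 5 with median scaling and 2 to 6 of either with 1 array left out (2 genes without mutant replicate 1 or 2, 6 without wild-type replicate 2 and 5 without wild-type replicate 3). Of the ephrins 4 passed, against 7 with SAM and 2 to 5 with 1 array left out. Of the other Eph receptors 1 passed, against 2 with SAM, with the filter on dim probe sets, with 1-symbol probe sets only or at the threshold of 0.1, 0 with the mean of all probe sets in limma (2 at an unadjusted p under 0.05) and 0 with any 1 array left out (1 or 2 at an unadjusted p under 0.05). Of the signaling genes 14 passed, against 22 with SAM and 3 to 14 with 1 array left out (7 without mutant replicate 1 and 3 without mutant replicate 2). The difference of *Efna3* changed sign without wild-type replicate 3 (0.0056) and ranged there from -0.70 to 0.0056, and that of *Efnb2* changed sign without the same array (-0.034 to 0.24 with 1 array left out). *Epha6*, a dim probe set, changed sign with median scaling (-0.068), repeated quantile normalization (-0.11) and without wild-type replicate 2 (-0.0795, and 0.11 without wild-type replicate 3). The causes were not tested. No paired analysis was made, because neither the labels nor the methods pair a mutant array with a wild-type array.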
